A study of Mus musculus with 12 samples.

Results

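The receptors for lysophosphatidic acid (LPA) and sphingosine-1-phosphate (S1P), together with Enpp2, the gene of the LPA-producing enzyme autotaxin, were followed across sorted glia of the postnatal mouse spinal cord. These 10 of the 53465 genes in the count files were chosen by pathway membership, with their levels and differences between these sorted fractions already known, so their values are given as a description. Calls from the fit over all genes are counted for them once, and nothing is read from those counts. They are Enpp2, the LPA receptors Lpar1, Lpar2, Lpar3, Lpar4 and Lpar6, and the S1P receptors S1pr1, S1pr2, S1pr3 and S1pr5. All 10 passed the filter on low counts that left 29361 genes.

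RNA came from the brachial and thoracic spinal cord of C57BL/6 mice of postnatal day 7, all of the genotype Aldh1L1-GFP/Olig2-tdTomato. Aldh1l1 is an enzyme gene of astrocytes, and Olig2 encodes a basic helix-loop-helix factor found in oligodendroglia and in ventral progenitors. Tissue was dissociated with papain and sorted by fluorescence into eGFP/tdTomato cells, which carry both reporters, eGFP cells and tdTomato cells, with 4 libraries each, numbered 1, 2, 3 and 5. Sort gates and the number of animals per library are not stated in the labels used here, so the SE and p-values measure the spread between libraries called biological replicates. All 3 fractions share the same mouse genotype, reporters and dissociation method, and no unsorted tissue serves as a control. Whether fractions of the same number came from the same animals is not stated in the labels used here.

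LPA and S1P are lipid messengers that act outside the cell through families of G protein-coupled receptors. Autotaxin makes LPA by removing choline from lysophosphatidylcholine, and sphingosine kinases make S1P by phosphorylating sphingosine. The receptors couple to Gi, Gq and G12/13 proteins in different combinations. S1P receptors are the targets of fingolimod, a drug for multiple sclerosis. S1pr5 is a known receptor of oligodendrocytes, S1pr1 of astrocytes and endothelium, and Lpar1 is abundant in oligodendrocytes around the time of myelination.

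Levels are CPM, the counts of a gene per 1e6 counts in genes, scaled by TMM library factors. Gene counts, in units of 1e6 reads, came to 23.9 to 30.3 per eGFP/tdTomato library, 12.6 to 27.9 per eGFP library and 25.5 to 36.5 per tdTomato library. The library eGFP replicate 1 stood apart, with 57.1% of its reads outside annotated genes against 21.2 to 42.5% in the other libraries, and results that turn on a single library are given without it below. Aldh1l1 averaged 722 CPM in eGFP/tdTomato cells, 406 CPM in eGFP cells and 3.69 CPM in tdTomato cells. Olig2 averaged 74.4 CPM in eGFP/tdTomato cells, 5.76 CPM in eGFP cells and 258 CPM in tdTomato cells. Summed over 10 astrocyte markers, levels ran from 43340 to 51020 CPM in eGFP/tdTomato libraries, 33660 to 49360 CPM in eGFP libraries and 224 to 310 CPM in tdTomato libraries. Summed over 9 markers of myelinating oligodendrocytes, they ran from 1503 to 3162 CPM, 383 to 1269 CPM and 109400 to 162000 CPM in the same order of fractions. No marker of these lists was at 0 in any fraction. The libraries are bulk RNA, so fewer cells of a type and less RNA per cell cannot be told apart.

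The start regions of the receptors differ in base composition in a way that can be read from the letters. RefSeq starts on GRCm38.p6 were found for 8 of the 10 genes; S1pr1 and Enpp2 were not matched. Below are the 250 bases before a start of S1pr5 (chr9:21248444-21248693, minus strand) and of Lpar1 (chr4:58553294-58553543, minus strand), receptors with their highest level in tdTomato cells. They are followed by those of Lpar4 (chrX:106920375-106920624, plus strand) and Lpar6 (chr14:73237641-73237890, plus strand), receptors with higher levels in the fractions with eGFP. Capitals mark each CG pair, the site of DNA methylation in mammals.
S1pr5: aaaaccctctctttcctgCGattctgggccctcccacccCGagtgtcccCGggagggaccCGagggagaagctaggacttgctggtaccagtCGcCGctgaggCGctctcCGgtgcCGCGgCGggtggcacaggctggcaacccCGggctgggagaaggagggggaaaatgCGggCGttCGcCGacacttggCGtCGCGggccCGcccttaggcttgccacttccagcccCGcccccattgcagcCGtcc
Lpar1: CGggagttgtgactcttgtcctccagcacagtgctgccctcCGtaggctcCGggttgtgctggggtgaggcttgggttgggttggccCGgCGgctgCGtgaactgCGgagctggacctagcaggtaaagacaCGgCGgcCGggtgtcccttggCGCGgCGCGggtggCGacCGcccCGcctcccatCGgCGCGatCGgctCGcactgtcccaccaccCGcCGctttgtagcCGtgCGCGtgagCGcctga
Lpar4: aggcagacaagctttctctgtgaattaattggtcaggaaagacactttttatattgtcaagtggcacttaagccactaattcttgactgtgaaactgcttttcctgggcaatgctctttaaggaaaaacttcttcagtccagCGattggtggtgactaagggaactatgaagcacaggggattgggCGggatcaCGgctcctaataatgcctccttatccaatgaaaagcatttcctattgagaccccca
Lpar6: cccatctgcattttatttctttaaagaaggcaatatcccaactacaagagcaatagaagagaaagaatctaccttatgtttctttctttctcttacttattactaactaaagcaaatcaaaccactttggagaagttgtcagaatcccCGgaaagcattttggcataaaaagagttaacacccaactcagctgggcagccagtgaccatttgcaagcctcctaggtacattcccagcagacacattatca

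The S1pr5 window held 22 CG pairs at 69.2% GC, and the Lpar1 window held 28 CG pairs at 70.0% GC. The Lpar4 window held 3 CG pairs at 43.6% GC, and the Lpar6 window held 1 CG pair at 39.2% GC. Over 32851 windows of the same length in the RefSeq table the medians were 6 CG pairs and 52.4% GC. At least as many CG pairs as in the S1pr5 window stood in 14.8% of all windows, and at least as many as in the Lpar1 window in 7.6%. Lpar3, also highest in tdTomato cells, had 17 CG pairs at 69.6% GC. The other starts of Lpar1 had 11 CG pairs at 62.0% GC and 3 CG pairs at 41.6% GC. S1pr3, highest in eGFP cells, had 9 CG pairs at 56.4% GC. S1pr2 had 14 at 59.2% GC and Lpar2 had 11 at 64.4% GC.

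Short motifs were searched in these windows on both strands. The letters ACAAAG, a core bound by SOX factors, stood in 16.46% of all windows, and among the receptors in S1pr2 and in the windows of 2 Lpar1 starts. In the Lpar1 window shown above they stand on the opposite strand, as CTTTGT, with 22 bases between the match and the start. The letters ACAATG, another SOX core, stood in 10.69% of all windows and in 1 window of Lpar1. The E-box CAGCTG, a letter pattern of the basic helix-loop-helix class, stood in 13.0% of all windows and in those of S1pr3 and Lpar6, with 204 and 57 bases between the match and the start. The TATA box TATAAA stood in 12.37% of all windows and, on the opposite strand, in that of Lpar4. The S1pr5 window held none of the 4 patterns, which says only that these letters are not in it.

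Gene positions are those of GENCODE M21 on GRCm38. Enpp2 (chr15:54838901-54952892, minus strand), the autotaxin gene, had the highest level of the set per kilobase of exon in tdTomato cells and lowest in cells with both reporters. It had 361, 397, 336 and 297 CPM in the eGFP/tdTomato libraries, 769, 903, 623 and 676 CPM in the eGFP libraries, and 3856, 5071, 4214 and 3595 CPM in the tdTomato libraries. No library of a fraction overlapped another fraction, so the cells with both reporters lay below cells with either reporter alone. The log2 fold change was −1.09 ± 0.18 (SE) in eGFP/tdTomato over eGFP, −3.59 ± 0.20 in eGFP/tdTomato over tdTomato and −2.49 ± 0.19 in eGFP over tdTomato. Enpp2 shares 345 exon bases (5.97% of its exon length) with Gm26684, a noncoding gene on the opposite strand that averaged at most 2.42 CPM in any fraction.

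**Figure D1:**
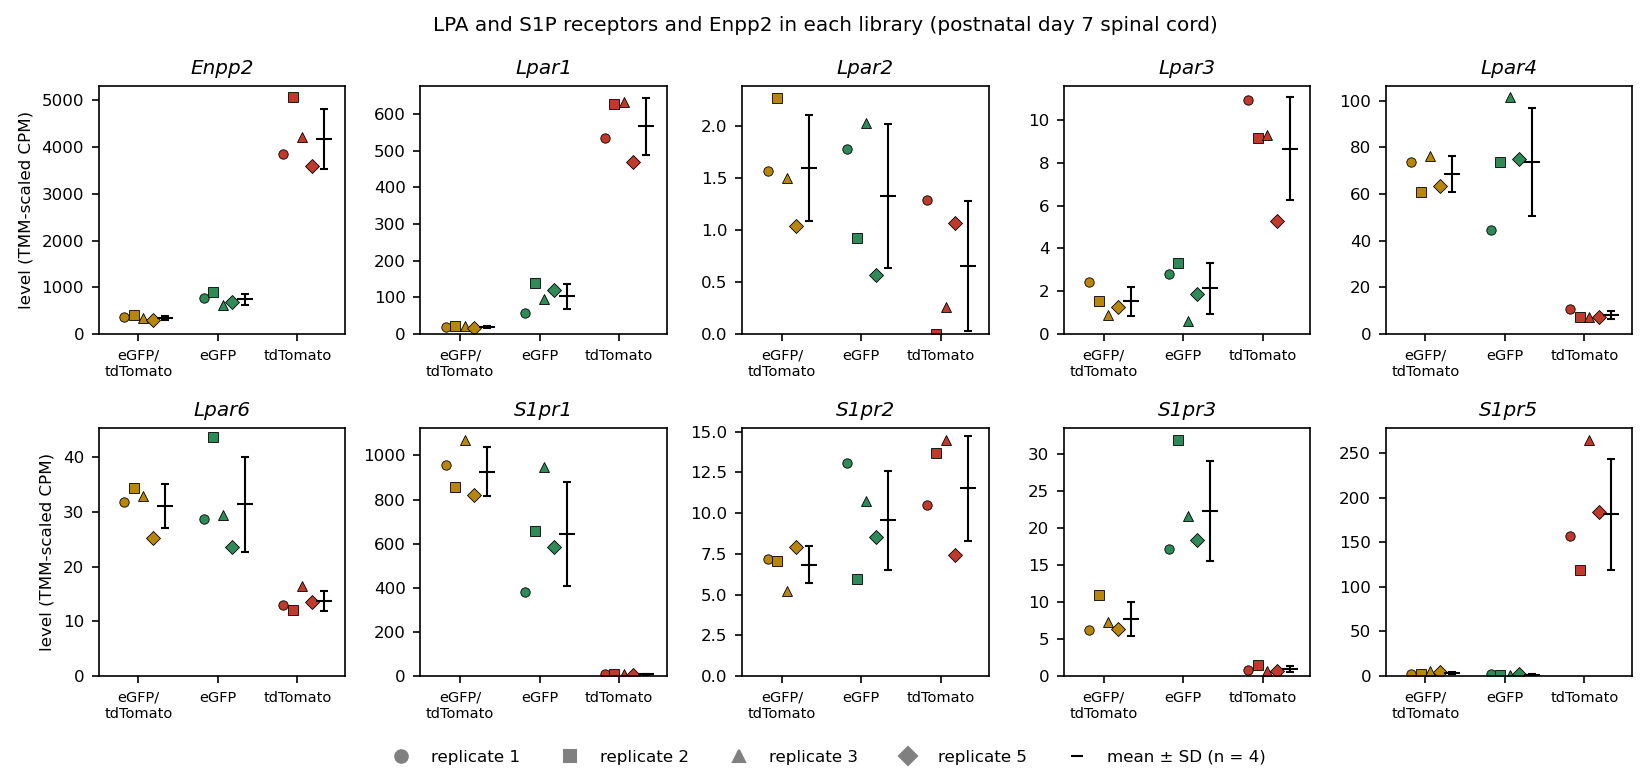
Level (TMM-scaled CPM, linear axis from 0, a scale of its own in each panel) of Enpp2 and the 9 receptors in each library; symbols are replicates 1, 2, 3 and 5, and the bar beside them is the mean ± SD of 4 libraries. Enpp2, Lpar1, Lpar3 and S1pr5 were highest in tdTomato cells, Lpar4, Lpar6, S1pr1 and S1pr3 were lowest there, and Lpar1 and Enpp2 were lower in eGFP/tdTomato cells than in both other fractions.

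Lpar1 (chr4:58435255-58553898, minus strand), a receptor coupled to Gi, Gq and G12/13, followed the same order as Enpp2, with a wider step between the fractions that carry eGFP. It had 18.3, 20.7, 21.7 and 15.8 CPM in the eGFP/tdTomato libraries, 57.6, 138, 94.5 and 119 CPM in the eGFP libraries, and 536, 628, 633 and 469 CPM in the tdTomato libraries. The 3 ranges were apart. edgeR estimated a log2 fold change of −2.42 ± 0.25 in eGFP/tdTomato over eGFP, −4.89 ± 0.27 in eGFP/tdTomato over tdTomato and −2.47 ± 0.24 in eGFP over tdTomato. The level in eGFP/tdTomato cells was therefore 29.6-fold below that in tdTomato cells and 5.35-fold below that in eGFP cells.

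Lpar3 (chr3:146220963-146286186, plus strand), another receptor that couples to Gi and Gq, was a low-level gene with its highest values in tdTomato cells. It had 2.46, 1.56, 0.866 and 1.26 CPM in the eGFP/tdTomato libraries, 2.79, 3.33, 0.602 and 1.85 CPM in the eGFP libraries, and 10.96, 9.15, 9.30 and 5.28 CPM in the tdTomato libraries. The fractions with eGFP overlapped each other and lay below every tdTomato library. The log2 fold change was −2.49 ± 0.48 in eGFP/tdTomato over tdTomato, −2.02 ± 0.47 in eGFP over tdTomato and −0.47 ± 0.47 in eGFP/tdTomato over eGFP.

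Lpar4 and Lpar6 belong to the branch of LPA receptors that is closer in sequence to purine receptors than to Lpar1. Lpar4 (chrX:106920625-106933900, plus strand) had 73.9, 60.9, 76.1 and 63.3 CPM in the eGFP/tdTomato libraries, 44.5, 73.7, 101.5 and 74.9 CPM in the eGFP libraries, and 10.5, 7.43, 7.44 and 7.27 CPM in the tdTomato libraries. The fractions with eGFP overlapped and stood above every tdTomato library. edgeR estimated a log2 fold change of 3.07 ± 0.24 in eGFP/tdTomato over tdTomato, 3.18 ± 0.24 in eGFP over tdTomato and −0.10 ± 0.22 in eGFP/tdTomato over eGFP.

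Lpar6 (chr14:73237895-73243294, plus strand) was likewise lowest in tdTomato cells, with a smaller step. It had 31.9, 34.5, 32.9 and 25.3 CPM in the eGFP/tdTomato libraries, 28.8, 43.8, 29.5 and 23.5 CPM in the eGFP libraries, and 13.1, 12.2, 16.4 and 13.5 CPM in the tdTomato libraries. Again the fractions with eGFP overlapped each other and not the tdTomato libraries. The log2 fold change was 1.18 ± 0.21 in eGFP/tdTomato over tdTomato, 1.19 ± 0.21 in eGFP over tdTomato and −0.01 ± 0.20 in eGFP/tdTomato over eGFP. The gene lies within Rb1 on the opposite strand and shares 408 exon bases (7.56%) with it. Rb1 averaged 115 CPM in eGFP/tdTomato cells, 81.3 CPM in eGFP cells and 41.2 CPM in tdTomato cells, and whether the counting used strand is not given in the sources used here, so part of the Lpar6 counts could be Rb1 reads.

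Lpar2 (chr8:69822429-69831102, plus strand), a receptor coupled to Gi, Gq and G12/13, was near the lower end of detection in every fraction. It had 1.57, 2.27, 1.51 and 1.04 CPM in the eGFP/tdTomato libraries, 1.78, 0.924, 2.03 and 0.566 CPM in the eGFP libraries, and 1.29, 0, 0.260 and 1.07 CPM in the tdTomato libraries. All 3 ranges overlapped. The 0 counts in tdTomato replicate 2 allow a level of up to 0.0902 CPM, taking 3 counts as the limit, which covers counting error only. The log2 fold change in eGFP/tdTomato over tdTomato was 1.29 ± 0.91 with edgeR and 2.70 with limma-voom, so its size differed between the tools. In eGFP over tdTomato it was 1.02 ± 0.90 with edgeR and 2.30 with limma-voom.

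S1pr1 (chr3:115710433-115715072, minus strand), the Gi-coupled S1P receptor, had the highest level per kilobase of the receptors in the fractions with eGFP. It had 956, 858, 1071 and 819.6 CPM in the eGFP/tdTomato libraries, 379, 659.5, 947 and 585 CPM in the eGFP libraries, and 6.99, 9.12, 8.0 and 5.13 CPM in the tdTomato libraries. The fractions with eGFP overlapped, and both stood more than an order of magnitude above every tdTomato library. edgeR estimated a log2 fold change of 6.98 ± 0.32 in eGFP/tdTomato over tdTomato, 6.46 ± 0.32 in eGFP over tdTomato and 0.53 ± 0.25 in eGFP/tdTomato over eGFP. Within the eGFP fraction the libraries had the same order for S1pr1 and for the summed astrocyte markers, which were 33660, 43090, 49360 and 41210 CPM in replicates 1, 2, 3 and 5. Within the eGFP/tdTomato fraction the orders differed, with astrocyte sums of 45710, 47140, 51020 and 43340 CPM in the same replicates. The 8 endothelial markers, a cell type in which S1pr1 is also known, summed to 59.7 to 76.0 CPM in eGFP/tdTomato libraries, 113 to 206 CPM in eGFP libraries and 65.7 to 112 CPM in tdTomato libraries. Of these 8 markers, 3 averaged 1 CPM or more in tdTomato cells, against 7 in each fraction with eGFP, so few genes carried the tdTomato sum. Their median log2 fold change was 1.22 in eGFP/tdTomato over tdTomato and 1.79 in eGFP over tdTomato, against 0.70 and 0.79 over all genes tested. The part of endothelial cells in the S1pr1 levels was not tested.

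S1pr5 (chr9:21242912-21248443, minus strand), which couples to Gi and G12/13, was highest in tdTomato cells, where S1pr1 was lowest. It had 2.08, 2.07, 5.39 and 4.07 CPM in the eGFP/tdTomato libraries, 1.90, 0.739, 0.903 and 2.04 CPM in the eGFP libraries, and 157, 119, 265 and 185 CPM in the tdTomato libraries. The log2 fold change was −5.73 ± 0.42 in eGFP/tdTomato over tdTomato, −7.03 ± 0.46 in eGFP over tdTomato and 1.29 ± 0.40 in eGFP/tdTomato over eGFP. The fractions with eGFP did not overlap, although the lowest eGFP/tdTomato library lay close to the highest eGFP library. Markers of myelinating oligodendrocytes were also higher in sum: 1503, 1739, 3162 and 2857 CPM in eGFP/tdTomato replicates 1, 2, 3 and 5, against 383, 541, 1269 and 914 CPM in the eGFP libraries. Within the eGFP libraries the order of this sum was not that of S1pr5. The part of these cells in the S1pr5 difference was not tested.

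S1pr3 (chr13:51408639-51422797, plus strand), coupled to Gi, Gq and G12/13, was highest in eGFP cells, intermediate in cells with both reporters and near 1 CPM in tdTomato cells. It had 6.27, 11.01, 7.27 and 6.30 CPM in the eGFP/tdTomato libraries, 17.2, 31.9, 21.6 and 18.5 CPM in the eGFP libraries, and 0.757, 1.53, 0.669 and 0.664 CPM in the tdTomato libraries. The 3 ranges were apart. edgeR estimated a log2 fold change of −1.53 ± 0.31 in eGFP/tdTomato over eGFP, 3.06 ± 0.34 in eGFP/tdTomato over tdTomato and 4.60 ± 0.36 in eGFP over tdTomato.

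S1pr2 (chr9:20962361-20976781, minus strand), known for coupling to G12/13, stayed within 1 log2 unit in every comparison, the only member to do so. It had 7.16, 7.06, 5.23 and 7.89 CPM in the eGFP/tdTomato libraries, 13.0, 5.96, 10.7 and 8.53 CPM in the eGFP libraries, and 10.5, 13.7, 14.5 and 7.42 CPM in the tdTomato libraries. All 3 fractions overlapped. The log2 fold change was −0.75 ± 0.28 in eGFP/tdTomato over tdTomato, −0.48 ± 0.28 in eGFP/tdTomato over eGFP and −0.27 ± 0.28 in eGFP over tdTomato.

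**Figure D2:**
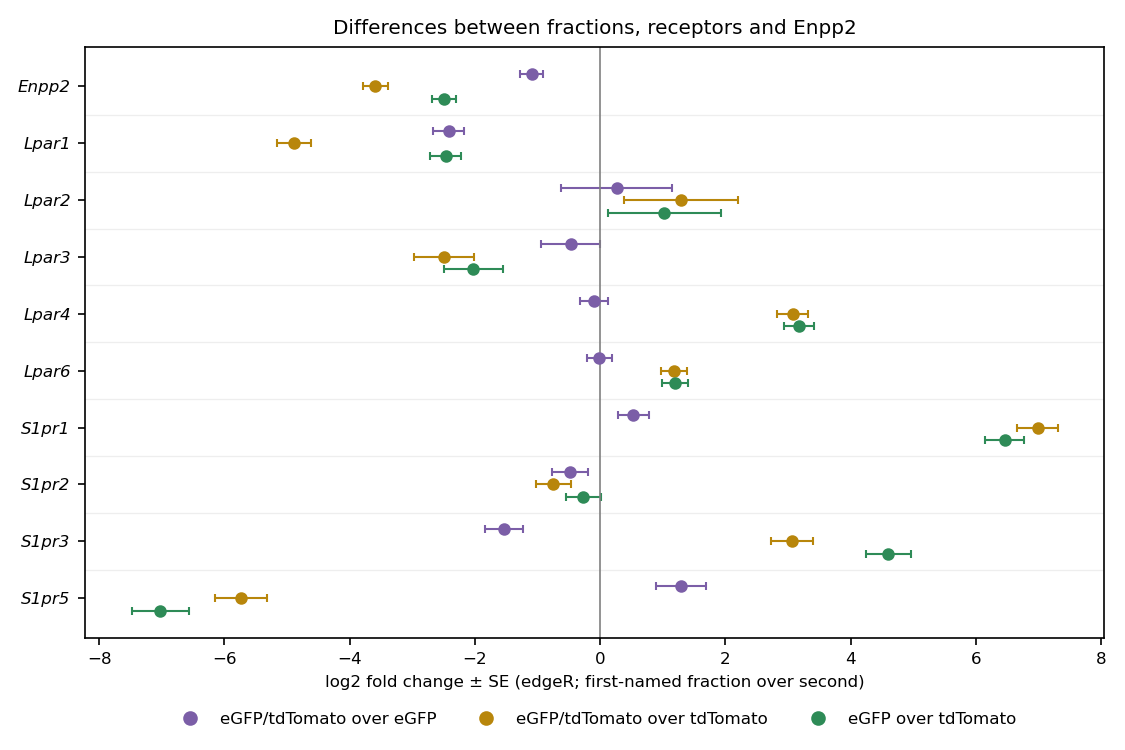
Log2 fold change ± SE (edgeR, all 12 libraries in the fit) of Enpp2 and the receptors for eGFP/tdTomato over eGFP, eGFP/tdTomato over tdTomato and eGFP over tdTomato; positive values are higher in the first-named fraction. S1pr1 at 6.98 and S1pr5 at −5.73 in eGFP/tdTomato over tdTomato lie far from 0 on opposite sides, and S1pr2 stays within 1 log2 unit in each comparison.

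At an edgeR adjusted p under 0.05 over all genes, 0 members were called higher and 3 lower (Enpp2, Lpar1 and S1pr3) in eGFP/tdTomato over eGFP, where 0.814% of all genes tested were called higher and 1.67% lower. In eGFP/tdTomato over tdTomato, 4 members were called higher (Lpar4, Lpar6, S1pr1 and S1pr3) and 4 lower (Enpp2, Lpar1, Lpar3 and S1pr5), against 16.8% and 12.4% of all genes. In eGFP over tdTomato the counts were also 4 higher and 4 lower, against 20.4% and 14.9% of all genes. These contrasts were known when the members were chosen, so the calls are no evidence about them. The median log2 fold change of the members was −0.29, 0.21 and 0.38 in the 3 comparisons, against −0.02, 0.70 and 0.79 over all genes tested. The S1pr3 call in eGFP/tdTomato over eGFP was lost without eGFP/tdTomato replicate 1, eGFP/tdTomato replicate 5 or eGFP replicate 2. In that comparison S1pr5 had an unadjusted p under 0.05 in the higher direction, and DESeq2 called 1 member higher (S1pr5) and limma-voom 0. S1pr2, not called in the reported fit, was called lower in eGFP/tdTomato over tdTomato with DESeq2 and under both other scalings. The same call came with both other filters on low counts, the 2 fractions alone and the covariate for reads outside genes. It also came without eGFP replicate 1, 2 or 5, eGFP/tdTomato replicate 3 or tdTomato replicate 5. S1pr2 was not called with limma-voom, with the replicate block or without any other single library.

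Per kilobase of exon, S1pr1 led the S1P receptors in both fractions with eGFP, and S1pr5 in tdTomato cells. The 4 S1P receptors summed to 308 ± 37 CPM per kilobase (SD, n = 4) in eGFP/tdTomato cells, 218 ± 77 in eGFP cells and 76.6 ± 24.8 in tdTomato cells. S1pr1 was 98.7 ± 0.2% of this sum in eGFP/tdTomato cells, 96.6 ± 1.1% in eGFP cells and 3.43 ± 1.61% in tdTomato cells. S1pr5 was 0.44 ± 0.19%, 0.31 ± 0.23% and 94.2 ± 2.7% in the same order. S1pr3 was 0.57 ± 0.20% in eGFP/tdTomato cells, 2.44 ± 0.77% in eGFP cells and 0.31 ± 0.23% in tdTomato cells.

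The 5 LPA receptors summed to 27.3 ± 2.6 CPM per kilobase in eGFP/tdTomato cells, 48.2 ± 12.2 in eGFP cells and 140 ± 19 in tdTomato cells, the reverse of the order of the S1P means. The S1P sums overlapped between the fractions with eGFP, at 273.1 to 356.2 in eGFP/tdTomato libraries and 130.6 to 317.5 in eGFP libraries. Their LPA sums, 23.98 to 29.71 and 30.72 to 59.22, did not overlap. Lpar4 was the leading receptor in eGFP/tdTomato cells, with 59.3 ± 3.6% of the sum, against 36.1 ± 7.0% in eGFP cells and 1.40 ± 0.34% in tdTomato cells. Lpar1 was 16.3 ± 1.6% of the sum in eGFP/tdTomato cells, 48.8 ± 6.7% in eGFP cells and 94.2 ± 0.9% in tdTomato cells. Its share ranged from 14.8 to 18.2% over the eGFP/tdTomato libraries and from 42.3 to 54.9% over the eGFP libraries, so these did not overlap. Lpar6 was 21.1 ± 2.0%, 12.5 ± 3.8% and 1.84 ± 0.29% of the sum in the same order of fractions.

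**Figure D3:**
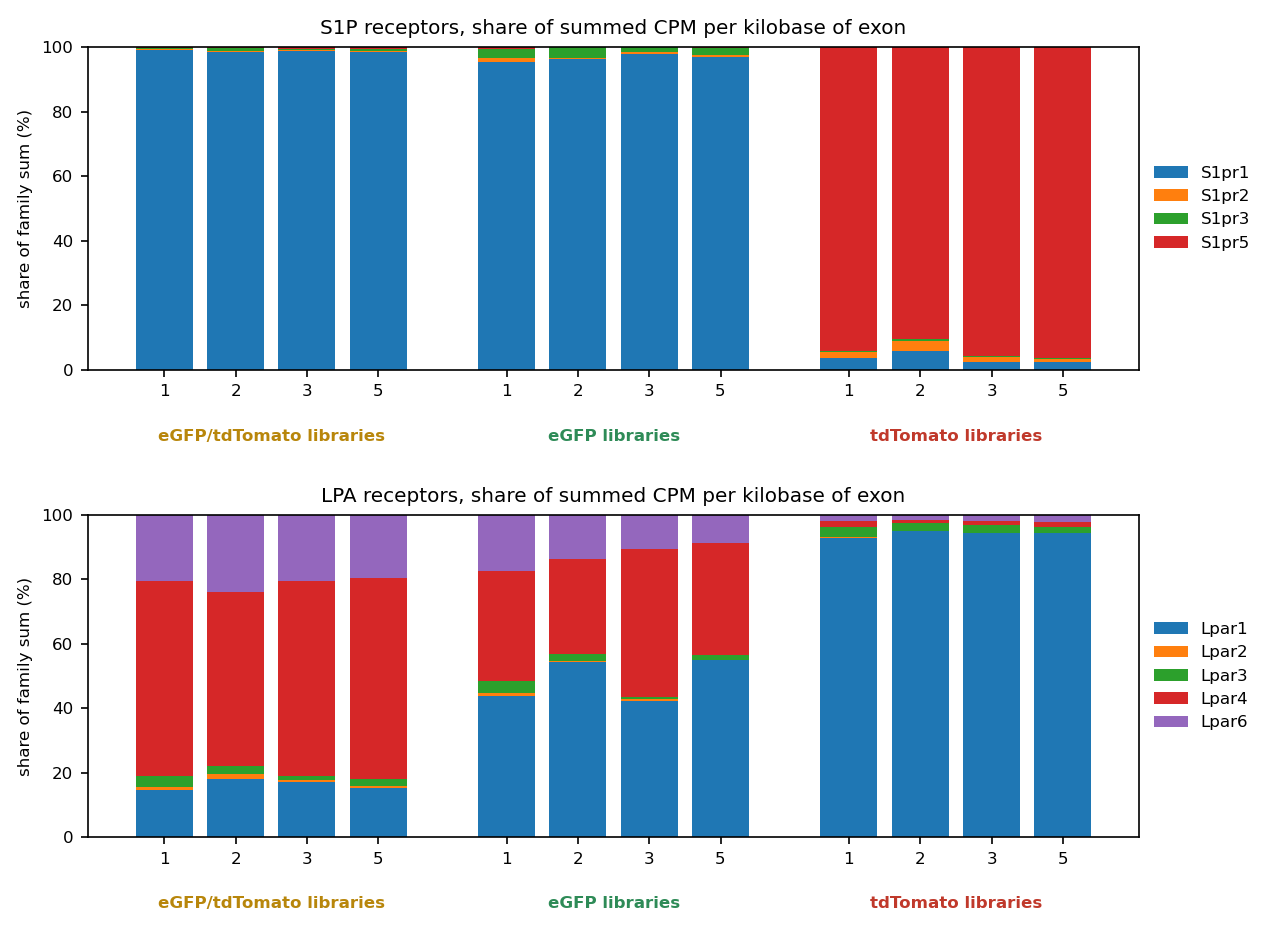
Share of each receptor (%) in its family's summed CPM per kilobase of exon, 1 bar per library (replicates 1, 2, 3 and 5 of each fraction), S1P receptors above and LPA receptors below. S1pr1 fills 95.2 to 99.01% of the S1P bars with eGFP and S1pr5 90.4 to 96.4% of the tdTomato bars, while Lpar4 leads the LPA bars of eGFP/tdTomato cells at 54.0 to 62.3%.

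Ordered by mean level per kilobase, S1pr1 (304 CPM per kilobase) came before Enpp2 (60.2) and Lpar4 (16.2) in eGFP/tdTomato cells, and these 3 did not overlap. Lpar6 (5.77) and Lpar1 (4.46) followed and overlapped, and S1pr3, S1pr5, S1pr2, Lpar3 and Lpar2 came last at 1.73 CPM per kilobase or less, each overlapping its neighbour. In eGFP cells the order began with S1pr1 (211) and Enpp2 (128.5), which overlapped, then Lpar1 (23.9) and Lpar4 (17.4), which also overlapped. Lpar6 (5.82) and S1pr3 (5.00) overlapped there too, and S1pr2, Lpar3, S1pr5 and Lpar2 were at 1.20 CPM per kilobase or less. In tdTomato cells Enpp2 (724), Lpar1 (132) and S1pr5 (72.6) were apart from each other and from the rest. Lpar3, Lpar6, S1pr1, Lpar4 and S1pr2 ran from 3.52 to 1.44 CPM per kilobase, each overlapping the next, and S1pr3 (0.203) and Lpar2 (0.112) overlapped at the end.

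The 3 members lower in eGFP/tdTomato cells than in eGFP cells, Enpp2, Lpar1 and S1pr3, stood beside shifts in markers of other cell types. The 8 ependymal markers summed to 14.8 to 22.0 CPM in eGFP/tdTomato libraries against 145 to 335 CPM in eGFP libraries, and all 8 were called lower in eGFP/tdTomato cells. The 9 mural and fibroblast markers summed to 370 to 583 CPM against 798 to 2117 CPM, with 5 of 9 called lower. The 11 microglia and macrophage markers summed to 79.9 to 99.04 CPM against 125.5 to 1125 CPM, with 7 of 11 called lower. Of the 8 endothelial markers, 1 was called lower. Of all genes tested, 1.67% were called lower in this comparison. The marker lists were chosen with earlier results of these data known, so nothing is read from their counts.

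In the library eGFP replicate 2 the levels of Enpp2 (903 CPM), Lpar1 (138 CPM) and S1pr3 (31.9 CPM) and the ependymal sum (335 CPM), the mural and fibroblast sum (2117 CPM) and the endothelial sum (206 CPM) were each at their highest among the eGFP libraries. The microglia and macrophage sum was 307 CPM in that library and highest, at 1125 CPM, in eGFP replicate 5. Without eGFP replicate 2 the log2 fold change in eGFP/tdTomato over eGFP was −2.23 for Lpar1, −0.97 for Enpp2 and −1.30 for S1pr3. Without eGFP replicate 1 it moved the other way for Lpar1 (−2.68) and S1pr3 (−1.71). For Enpp2, fits without 1 library ran from −1.16 to −0.97. In eGFP replicate 1 the ependymal sum was lowest (145 CPM), as were Lpar1 and S1pr3 among the eGFP libraries. Enpp2, at 769 CPM there, was above replicates 3 and 5 (623 and 676 CPM). The part of these cell types in the differences was not tested. Of the 9 markers of myelinating oligodendrocytes, whose sum was highest in tdTomato cells, 6 were called higher in eGFP/tdTomato cells than in eGFP cells. Of the 7 progenitor markers, whose sum was also highest in tdTomato cells, 2 were called higher in that comparison, against 0.814% of all genes. The part of oligodendroglia in the Lpar1 and Enpp2 differences was not tested. In tdTomato libraries the 8 ependymal markers summed to 2.27 to 3.73 CPM and the microglia and macrophage markers to 29.3 to 57.1 CPM. The 7 oligodendrocyte progenitor markers summed to 313 to 395 CPM in eGFP/tdTomato libraries, 326 to 477 CPM in eGFP libraries and 2002 to 3133 CPM in tdTomato libraries; Cspg4 stands in this list and in the mural and fibroblast list. The 8 neuron markers summed to 34.6 to 59.2, 59.3 to 75.2 and 431 to 647 CPM in the same order, but single neuron markers differed in direction. Their median log2 fold change was −0.60 in eGFP/tdTomato over tdTomato, with 1 called higher and 4 lower. In eGFP over tdTomato it was 0.34, with 2 called higher and 2 lower.

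**Figure D4:**
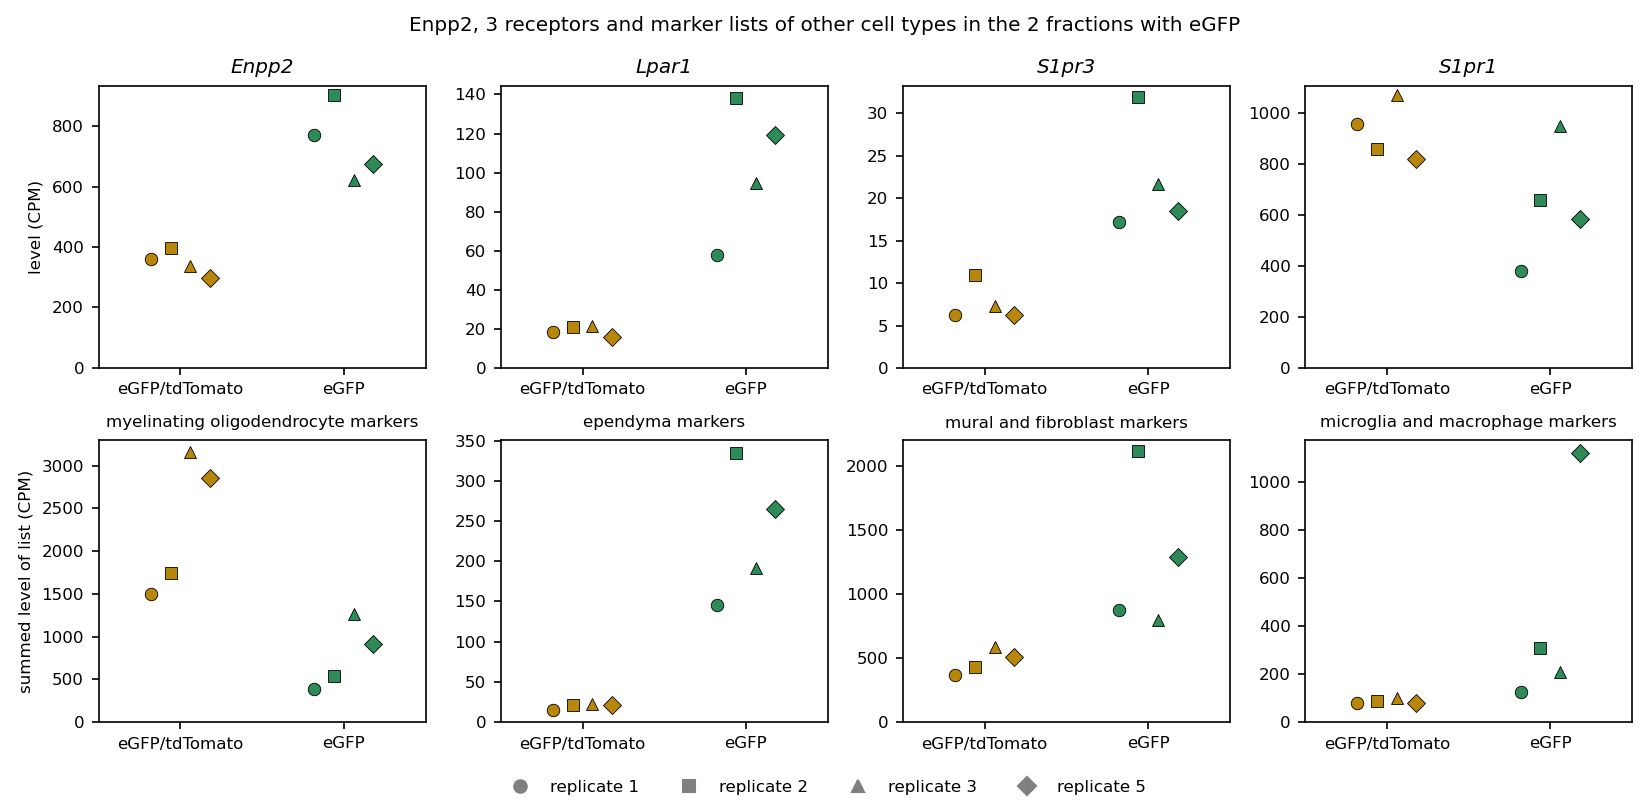
Levels (CPM, axes from 0) of Enpp2, Lpar1, S1pr3 and S1pr1 above, and summed levels (CPM) of 4 marker lists below, in the eGFP/tdTomato and eGFP libraries; symbols are replicates 1, 2, 3 and 5. Enpp2, Lpar1 and S1pr3 and the ependymal, mural and fibroblast, and microglia and macrophage sums are lower in every eGFP/tdTomato library than in every eGFP library, and the myelinating oligodendrocyte sum is higher.

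For each member with at least 10 CPM in some fraction, the protein-coding genes with the most alike profile were taken by the smallest root mean square (RMS) difference of centred log2 CPM over the 12 libraries. Nearest to S1pr1 were Id3 (RMS 0.196), an inhibitor of basic helix-loop-helix factors, Atp1b2 (0.222), a sodium pump subunit of astrocytes, and Lcat (0.224), an enzyme of cholesterol esters. Id3 averaged 751 CPM in eGFP/tdTomato cells, 532 CPM in eGFP cells and 5.65 CPM in tdTomato cells. Nearest to S1pr5 were Hapln2 (0.257), a link protein of the nodes of Ranvier, Dusp15 (0.368), a phosphatase, and Tnr (0.421), the tenascin of oligodendrocytes. Hapln2 averaged 2.15 CPM, 0.791 CPM and 113 CPM in the same order of fractions.

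Nearest to Enpp2 were Dixdc1 (0.239), Car14 (0.270), a carbonic anhydrase, and Plppr1 (0.302), a membrane protein related to the lipid phosphate phosphatases. Lpar1 had looser neighbours, led by Arc (0.455), a gene of neuronal activity, Map1b (0.482), a microtubule protein, and Bcat1 (0.566). Arc averaged 2.69 CPM in eGFP/tdTomato cells, 16.3 CPM in eGFP cells and 66.3 CPM in tdTomato cells. Lpar4 lay nearest to Camk2d (0.205), Antxr1 (0.214) and Fndc3b (0.221), and Lpar6 to Rexo5 (0.18), Kctd6 (0.188) and Asl (0.207). S1pr3 lay nearest to Rbms3 (0.423), Fstl1 (0.429) and Abi3bp (0.451), genes that averaged 38.0, 140 and 21.7 CPM in eGFP cells. S1pr2 lay nearest to Tmem131l (0.255), Ercc6 (0.261) and Chgb (0.277).

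Other genes of the pathway were counted from 11 lists of 56 genes, of which 55 were tested; Apom did not pass the filter. In eGFP/tdTomato over eGFP, 1 gene was higher (1.82% of those tested) and 3 were lower (5.45%), against the 0.814% and 1.67% of all genes given above. In eGFP/tdTomato over tdTomato, 14 were higher (25.5%) and 12 lower (21.8%), against 16.8% and 12.4% of all genes. In eGFP over tdTomato, 15 were higher (27.3%) and 15 lower (27.3%), against 20.4% and 14.9% of all genes. The counts of single lists below stand against the same shares of all genes. Any 2 of these comparisons share the libraries of 1 fraction. The median log2 fold change of these genes was 0.08, 0.32 and 0.43 in the 3 comparisons, against −0.02, 0.70 and 0.79 over all genes. Adjusted p-values below are from edgeR's quasi-likelihood test with Benjamini-Hochberg adjustment over all genes tested.

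Among LPA-forming enzymes, 1 of 5 was higher (Agk) and 1 lower (Gdpd1) in eGFP/tdTomato over tdTomato, and 1 was higher (Liph) and 1 lower (Gdpd1) in eGFP over tdTomato. Gdpd1, a phosphodiesterase that forms LPA from lysophospholipids, averaged 22.9 ± 2.1 CPM in eGFP/tdTomato cells, 22.5 ± 6.2 CPM in eGFP cells and 153 ± 29 CPM in tdTomato cells (SD, n = 4 each). Its log2 fold change was −2.75 ± 0.22 (edgeR adjusted p = 1.23e-07) in eGFP/tdTomato over tdTomato. Liph, a phospholipase that forms LPA from phosphatidic acid, averaged 1.22 ± 0.69 CPM, 6.04 ± 2.14 CPM and 0.692 ± 0.408 CPM in the same order of fractions. It was higher in eGFP over tdTomato by 3.11 ± 0.61 (edgeR adjusted p = 0.000849), and its value in eGFP/tdTomato over eGFP, −2.30 ± 0.59, just missed the threshold (edgeR adjusted p = 0.0536) and passed it with DESeq2 (adjusted p = 0.000931). Agk, the acylglycerol kinase, differed by 0.58 ± 0.19 in eGFP/tdTomato over tdTomato (edgeR adjusted p = 0.0269), a call lost with RLE scaling (adjusted p = 0.0613), both other filters on low counts, the 2 fractions alone, and without eGFP/tdTomato replicate 1, 2, 3 or 5, eGFP replicate 1 or 5, or tdTomato replicate 1, 3 or 5 (adjusted p = 0.0518 to 0.376).

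Of the 4 phosphatases listed for LPA breakdown, 3 were higher (Plpp1, Plpp3 and Acp6) and 1 lower (Plpp2) in each comparison with tdTomato cells. The Plpp proteins act on LPA and S1P at the cell surface, and Acp6, named after its values were seen, encodes a lysophosphatidic acid phosphatase of mitochondria. Plpp3 had 1150, 1011, 1706 and 1316 CPM in the eGFP/tdTomato libraries, 349, 695.5, 969 and 561 CPM in the eGFP libraries, and 280.1, 212, 301 and 200.0 CPM in the tdTomato libraries. It was higher in eGFP/tdTomato over tdTomato by 2.38 ± 0.29 (edgeR adjusted p = 8.9e-06) and in eGFP over tdTomato by 1.37 ± 0.28 (edgeR adjusted p = 0.0011). Every eGFP/tdTomato library also lay above every eGFP library, but that difference, 1.01 ± 0.28, missed the threshold (edgeR adjusted p = 0.0771) and passed it with DESeq2 (adjusted p = 0.00483). Plpp1 was higher in eGFP/tdTomato over tdTomato by 2.83 ± 0.26 (edgeR adjusted p = 5.08e-07), with 25.8% of its exon length shared with Mtrex on the opposite strand. Plpp2 went the other way, averaging 2.54 ± 0.73 CPM in eGFP/tdTomato cells, 1.27 ± 0.56 CPM in eGFP cells and 92.5 ± 15.8 CPM in tdTomato cells. Its log2 fold change in eGFP/tdTomato over tdTomato was −5.18 ± 0.31 (edgeR adjusted p = 5.68e-09).

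**Figure D5:**
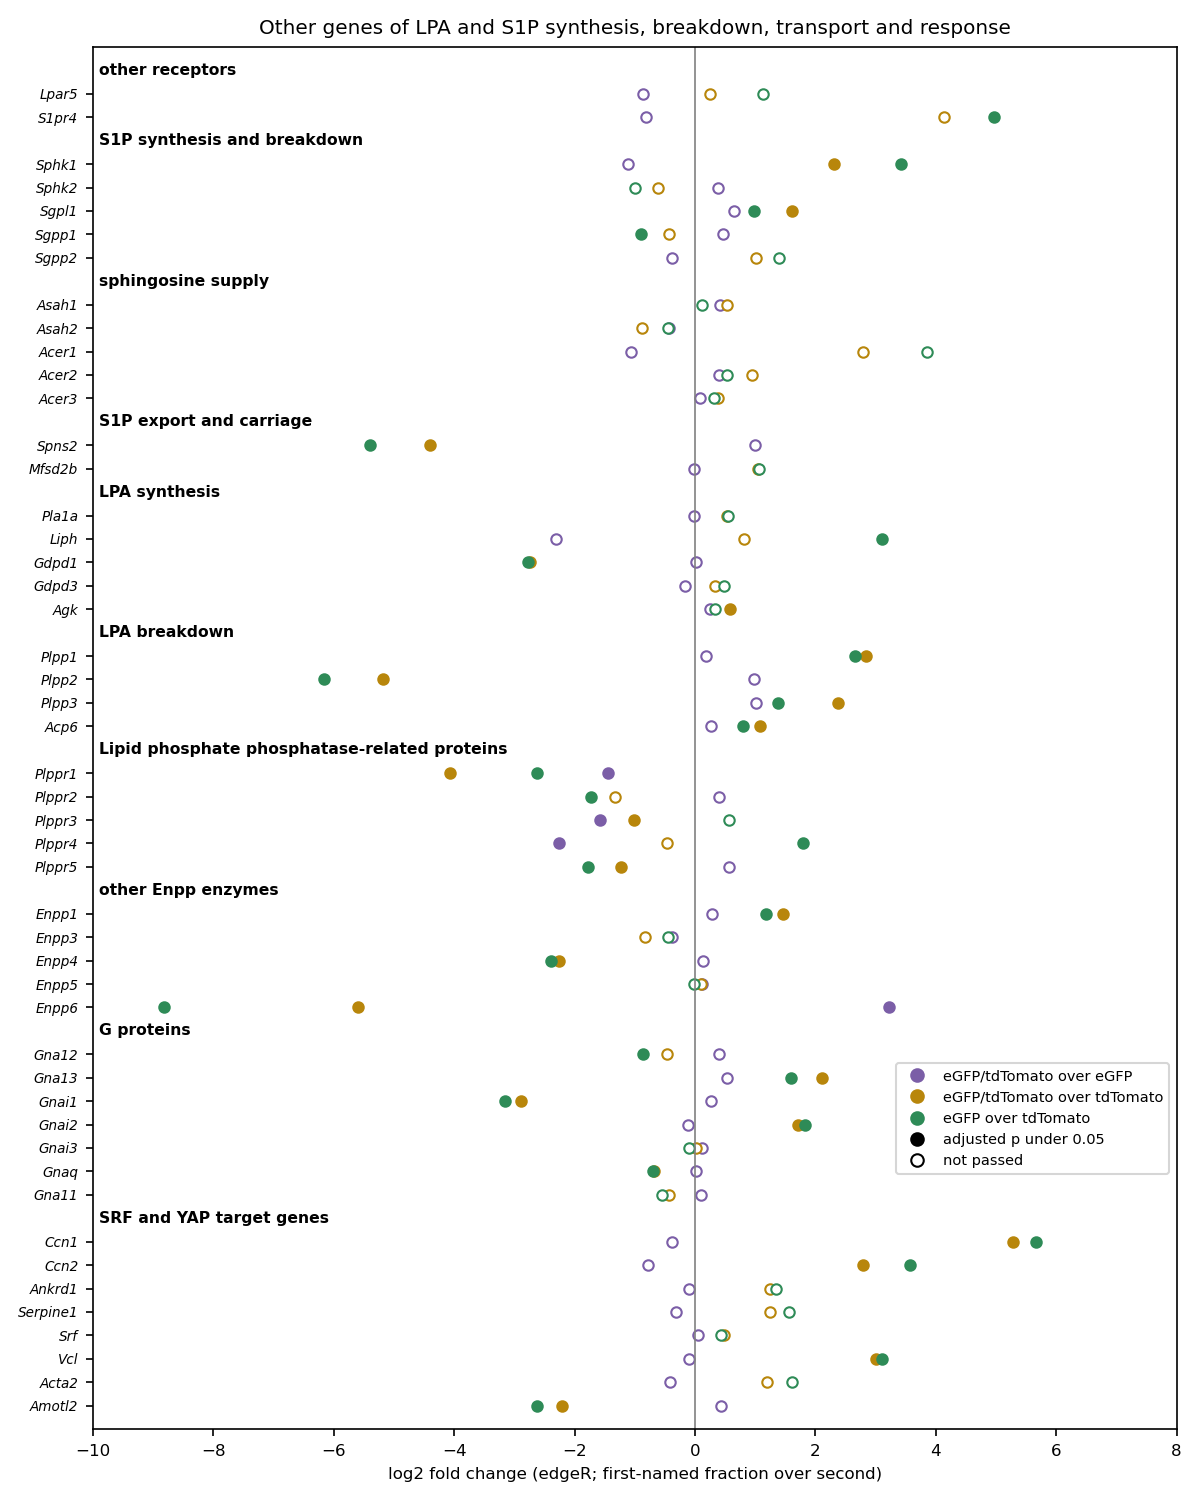
Log2 fold change (edgeR, first-named fraction over second) of 48 genes of LPA and S1P synthesis, breakdown, transport and response, from 10 of the 11 lists, grouped by role; filled points passed an adjusted p under 0.05 over all genes. Enpp6, Plpp2 and Spns2 lie far to the left in the comparisons with tdTomato cells, Ccn1 and Vcl to the right, and 4 points of eGFP/tdTomato over eGFP are filled.

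The lipid phosphate phosphatase-related proteins, membrane proteins without known phosphatase activity, held 3 of the 4 genes called in eGFP/tdTomato over eGFP. Plppr1 averaged 2.04 ± 0.59 CPM in eGFP/tdTomato cells, 5.55 ± 0.76 CPM in eGFP cells and 34.1 ± 13.8 CPM in tdTomato cells, so that, as for Enpp2 and Lpar1, cells with both reporters lay below either single-reporter fraction. Its log2 fold change was −1.45 ± 0.29 in eGFP/tdTomato over eGFP (edgeR adjusted p = 0.0122), a call lost with limma-voom (adjusted p = 0.0963) and without eGFP/tdTomato replicate 5 (adjusted p = 0.0589). In eGFP/tdTomato over tdTomato it was −4.07 ± 0.31 (edgeR adjusted p = 6.56e-08). Plppr4 averaged 5.45 ± 1.71 CPM, 26.1 ± 8.5 CPM and 7.52 ± 4.63 CPM in the same order, and was lower in eGFP/tdTomato over eGFP by −2.26 ± 0.39 (edgeR adjusted p = 0.00374). Plppr3, which the rule for naming left out and which is named here after its values were seen, was lower there by −1.58 ± 0.34 (edgeR adjusted p = 0.0195). These 3 were all the pathway genes called lower in eGFP/tdTomato over eGFP, and the count turned on single libraries. Lower calls fell to 2 without eGFP/tdTomato replicate 1, eGFP replicate 2 or eGFP replicate 5, and to 1 without eGFP/tdTomato replicate 5. Plppr5 was lower in eGFP/tdTomato over tdTomato by −1.22 ± 0.19 (edgeR adjusted p = 0.000108).

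Of the enzymes related to autotaxin, Enpp6, a choline phosphodiesterase of newly formed oligodendrocytes, had the widest range across the fractions. It had 28.6, 32.2, 60.4 and 50.2 CPM in the eGFP/tdTomato libraries, 5.80, 2.26, 6.62 and 3.62 CPM in the eGFP libraries, and 1997, 2130, 2635 and 1561 CPM in the tdTomato libraries. It was the 1 pathway gene higher in eGFP/tdTomato over eGFP, by 3.23 ± 0.34 (edgeR adjusted p = 8.44e-05). Its eGFP/tdTomato replicates 3 and 5 lay above replicates 1 and 2, as did the myelinating oligodendrocyte sum. Within the eGFP libraries the order of that sum was not that of Enpp6. The part of myelinating oligodendrocytes in the Enpp6 difference was not tested. Against tdTomato cells, the log2 fold change in eGFP/tdTomato cells was −5.60 ± 0.37 (edgeR adjusted p = 1.47e-08). Enpp4 was lower there by −2.26 ± 0.19 (edgeR adjusted p = 2.18e-07), and Enpp1, a nucleotide pyrophosphatase, was higher by 1.46 ± 0.19 (edgeR adjusted p = 1.98e-05).

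On the S1P side, 2 of 5 genes of S1P synthesis and breakdown were higher (Sgpl1 and Sphk1) in each comparison with tdTomato cells. In eGFP over tdTomato 1 was lower (Sgpp1). Sphk1, a sphingosine kinase named after its values were seen, averaged 2.15, 4.67 and 0.426 CPM in eGFP/tdTomato, eGFP and tdTomato cells. It was higher by 2.305 ± 0.63 in eGFP/tdTomato over tdTomato (edgeR adjusted p = 0.0111). In eGFP over tdTomato the value was 3.42 ± 0.65 (edgeR adjusted p = 0.000663). Sgpl1, the lyase that ends S1P signalling by cleaving S1P, averaged 229 ± 48 CPM in eGFP/tdTomato cells, 146.5 ± 52.7 CPM in eGFP cells and 74.6 ± 11.3 CPM in tdTomato cells. Its log2 fold change was 1.62 ± 0.24 in eGFP/tdTomato over tdTomato (edgeR adjusted p = 7.88e-05) and 0.98 ± 0.24 in eGFP over tdTomato (edgeR adjusted p = 0.00448). Sgpp1, an S1P phosphatase, was lower in eGFP over tdTomato by −0.90 ± 0.27 (edgeR adjusted p = 0.0151), a call lost without tdTomato replicate 1 (adjusted p = 0.0705) and with the covariate for reads outside genes (adjusted p = 0.0646). None of the 5 ceramidases that supply sphingosine passed in any comparison with edgeR; the most abundant, Asah1, averaged 241.5 CPM in eGFP/tdTomato cells, 182 CPM in eGFP cells and 168 CPM in tdTomato cells. At an unadjusted p under 0.05 edgeR gave 3 differences (Asah1 and Acer3 in eGFP/tdTomato over tdTomato, Acer1 in eGFP over tdTomato); DESeq2 called 1 and limma-voom 0. Asah1 passed in eGFP/tdTomato over tdTomato with the reads outside genes as a covariate (adjusted p = 0.000197).

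The S1P exporter Spns2 was highest in tdTomato cells, as S1pr5 was. It had 1.57, 1.99, 1.54 and 2.67 CPM in the eGFP/tdTomato libraries, 2.12, 0.323, 0 and 1.55 CPM in the eGFP libraries, and 57.5, 30.4, 45.6 and 31.0 CPM in the tdTomato libraries. Its log2 fold change was −4.40 ± 0.64 in eGFP/tdTomato over tdTomato (edgeR adjusted p = 6.46e-05) and −5.40 ± 0.69 in eGFP over tdTomato (edgeR adjusted p = 1.49e-05). With the covariate for reads outside genes these were −5.07 and −6.66. In eGFP over tdTomato the value was also −6.18 without eGFP replicate 1, −6.01 without eGFP replicate 5 and −6.84 with limma-voom. Of the receptors outside the set, S1pr4 had 83, 109 and 4 counts summed over the 4 libraries of eGFP/tdTomato, eGFP and tdTomato cells, and Lpar5 averaged 0.254, 0.468 and 0.210 CPM. S1pr4 was higher in eGFP over tdTomato by 4.96 ± 1.63 (edgeR adjusted p = 0.0268), with a size and a call that depended on the setting. It was 3.49 with limma-voom (adjusted p = 0.224), 3.04 with the covariate for reads outside genes (adjusted p = 0.173), 3.97 without eGFP replicate 1 (adjusted p = 0.0814) and 6.19 without tdTomato replicate 5 (adjusted p = 0.0238). The S1pr4 call was also lost without eGFP replicate 5 or tdTomato replicate 1, 2 or 3 (adjusted p = 0.0516 to 0.0737).

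Downstream, 2 of 7 G protein genes were higher (Gna13 and Gnai2) and 2 lower (Gnai1 and Gnaq, the last named after its values were seen) in eGFP/tdTomato over tdTomato, with calls in both directions within the Gi class. Gna13, an alpha subunit of the G12/13 class, averaged 214 ± 32 CPM in eGFP/tdTomato cells, 148 ± 40 CPM in eGFP cells and 49.3 ± 8.2 CPM in tdTomato cells, and was higher in eGFP/tdTomato over tdTomato by 2.12 ± 0.21 (edgeR adjusted p = 1.45e-06). Gnai2 was higher there by 1.71 ± 0.24 (edgeR adjusted p = 5.01e-05). Gnai1, also of the Gi class, averaged 28.9 ± 7.3 CPM, 24.2 ± 10.4 CPM and 215 ± 33 CPM in the same order of fractions, and was lower there by −2.89 ± 0.30 (edgeR adjusted p = 1.66e-06).

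Of 8 genes that SRF and YAP activate, 3 were higher (Ccn1, Ccn2 and Vcl) and 1 lower (Amotl2) in each comparison with tdTomato cells, and 0 passed in eGFP/tdTomato over eGFP with edgeR. For eGFP/tdTomato over eGFP, 0 also had an unadjusted p under 0.05 or passed with DESeq2 or limma-voom. Ccn1, a secreted matrix protein, had 401, 425, 512 and 464.5 CPM in the eGFP/tdTomato libraries, 377, 750.0, 640.5 and 569.5 CPM in the eGFP libraries, and 10.4, 15.9, 11.4 and 8.34 CPM in the tdTomato libraries. Its log2 fold change was 5.29 ± 0.27 in eGFP/tdTomato over tdTomato (edgeR adjusted p = 1.47e-09). Vcl, the vinculin gene, was higher there by 3.00 ± 0.26 (edgeR adjusted p = 2.73e-07), with 25.5% of its exon length shared with Ap3m1 on the opposite strand. Amotl2, a gene of the Hippo pathway, was lower there by −2.20 ± 0.28 (edgeR adjusted p = 1.5e-05), and by −2.82 without eGFP/tdTomato replicate 3.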

How the data were processed

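RNA of sorted spinal cord glia was measured in 12 libraries, 4 per fraction. Per the submitters' processing notes, reads were aligned with STAR to GRCm38/mm10 and counted with HTSeq; versions, strand setting and annotation release are not given in the sources used here. The authors deposited raw counts per Ensembl gene, 53465 identifiers and 5 lines that name no gene, which were left out (reads outside genes were 21.2 to 57.1% per library, ambiguous reads 1.79 to 4.60%, multiply aligned reads 10.1 to 15.2%). Symbols and positions came from GENCODE M21 (99.8% of identifiers matched). No library pair was identical.

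Counts were fitted with edgeR 4.0.16 in R 4.3.3 (robust quasi-likelihood test; normalization by TMM; genes kept by filterByExpr; all 12 libraries, with fraction as the single term). P-values were adjusted by Benjamini-Hochberg over 29361 genes and called under 0.05. The SE is the size of the log2 fold change over the root of F. Levels per kilobase used merged exon length. The fit was tested on simulated counts. DESeq2 1.42.0 and limma 3.58.1 (voom) were alternatives, beside other scalings, filters, the 2 compared fractions alone, a replicate block, a covariate for reads outside genes and leaving out each library. Calls of members are counted beside the share of all genes called, and no p-value of a member is given.

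The members and the pathway and marker lists were chosen with earlier results of these data known. Of each pathway list, up to 3 genes with a call and at least 5 CPM in the higher fraction were named by the largest log2 fold change, or else the most abundant gene, and Lpar5 and S1pr4 always. The genes of 1 of the 11 lists entered the counts over all lists and are not reported here. Intervals and limits from counts cover counting error only.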

Additional observations from a re-analysis of the deposited data

Results flagged for a closer look

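Of 30 groups of 4 libraries (10 genes in 3 fractions), 2 held a library far from the other 3 by Dixon's test, and chance marks about 1 in 20 groups. Lpar4 was 10.5 CPM in tdTomato replicate 1, against 7.27 to 7.44 CPM in the other tdTomato libraries. S1pr3 was 1.53 CPM in tdTomato replicate 2, against 0.664 to 0.757 CPM in the others. Both values lay below every library of the eGFP/tdTomato and eGFP fractions.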

How the results depend on the processing

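For the 10 members, 612 of the values under 21 other settings differed from the reported log2 fold change by less than the spread between libraries, 18 moved further, and no called value changed sign. In eGFP/tdTomato over eGFP, 730 genes were called; DESeq2 called 1498, a fit with the replicate block 1239, a covariate for reads outside genes 1175, and fits without 1 library 450 to 1008. Higher calls (239 reported) were 566 with the replicate block, 549 with DESeq2, 479 with the covariate, 475 without eGFP replicate 3, and 103 to 152 without eGFP/tdTomato replicate 1, 3 or 5 or eGFP replicate 2 or 5; lower calls (491 reported) were 949 with DESeq2 and 323 without eGFP/tdTomato replicate 5. The lowest totals were 484, 471 and 450 without eGFP/tdTomato replicates 1, 3 and 5, and 451 without eGFP replicate 5. Of the other pathway genes, 4 were called there; DESeq2 and the replicate block called 7 each, and fits without 1 library 2 to 6, the lowest without eGFP/tdTomato replicate 5. The cause of these shifts was not tested. The labels do not say what libraries of the same number share, so the reported fit did not take the numbers as pairs. Deviations from the fraction mean correlated at over 0.1 in 8 of 12 same-number pairs (from −0.226 to 0.596). By these deviations 7 of 12 libraries were closest to their own number. These values do not settle whether same-number libraries are paired, and the reported fit would ignore such a pairing. With the replicate block S1pr5 was also called higher in eGFP/tdTomato over eGFP. The called genes that were higher made up 57.6% in eGFP/tdTomato over tdTomato, 45.8% with at least 1 CPM in 4 libraries, 45.5% with the 2 fractions alone, and 43.5%, 44.2% and 44.7% without eGFP/tdTomato replicate 3, eGFP replicate 1 and eGFP replicate 5. In eGFP over tdTomato they made up 57.7%, 49.4% with at least 1 CPM in 4 libraries, and 46.9%, 48.4% and 47.8% without the same 3 libraries. In eGFP/tdTomato over eGFP they made up 32.7%, from 20.6% with the 2 fractions alone to 47.1% without eGFP replicate 3. With RLE factors the median log2 fold change over all genes in eGFP/tdTomato over tdTomato was 0.57, against 0.70 reported, with the same 8 members called and S1pr2 besides. With TMM factors from protein-coding genes the median was 0.60 there, and −0.13 in eGFP/tdTomato over eGFP, against −0.02 reported. In the comparisons with tdTomato cells the total counts stayed within 1.5 times the reported ones under each setting run; by direction, lower calls in eGFP/tdTomato over tdTomato were 5452 without eGFP replicate 1, against 3628 reported.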
